A study of Homo sapiens with 19 samples.

Results

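Sodium arsenite (AS) stress was compared with the unstressed state in 2 RNA-seq libraries of SH-SY5Y, a human neuroblastoma line. Total was the lysate of AS-treated cells from which stress granules (SGs) were later purified, and siCtrl came from cells given a negative control siRNA. Genes were kept when they were above 1 TPM (transcript abundance per length, scaled to a fixed total in each library) in at least 1 of the 2, which left 12173 of the 19942 protein-coding rows of the table. The series holds 19 samples, of which these 2 were compared. Beside them stand 3 more libraries of the same table: siG3BP1 and siG3BP2, in which a G3BP mRNA was knocked down, and SG, the purified SG cores. Each condition had 1 library, so no difference below has a replicate check and none carries a p-value. Total came from cells given 500 μM AS for 1 h, lysed through a needle and spun at low speed, and its RNA was taken from a small part of the supernatant. The siRNA libraries came from transfected cells. The labels give 50 mM AS for 1 h for all 5 libraries, siCtrl included. The study's methods describe no AS treatment of the siRNA cells, and their libraries are taken here as unstressed. Each siRNA library rested on 1 siRNA. AS, transfection, lysis and clearing therefore all differed between Total and siCtrl and cannot be told apart. The study's methods describe poly-A libraries for the siRNA cells and do not state the RNA selection for Total and SG. A difference in selection cannot be told apart from these either. Likewise, in bulk RNA fewer cells of a type and less RNA per cell cannot be told apart.

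Arsenite binds protein thiols, and cells answer it by phosphorylating eIF2α, halting most translation and gathering untranslated mRNAs with G3BP proteins in SGs. At the same time the stress kinases switch on immediate-early genes, HSF1 switches on chaperone genes and MTF1 switches on metallothionein genes. The spin that clears a lysate removes nuclei, debris and heavy particles together with the RNA they hold.

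As a check of the labels, G3BP1 mRNA was at 18.7 TPM in siCtrl, 6 in siG3BP1, 16.5 in siG3BP2 and 12.8 in Total. G3BP2 mRNA was at 38.1 in siCtrl, 39.4 in siG3BP1, 11.4 in siG3BP2 and 28.1 in Total. Each was lowest in the library with its own siRNA. The TPM of the protein-coding genes summed to 646450 in siCtrl, 628101 in siG3BP1, 631330 in siG3BP2 and 623955 in Total, and 4534, 4404, 4581 and 4519 genes were listed at 0. The 100 most abundant genes held 36.6% of this sum in Total and 29.3% to 31.3% in the siRNA libraries. Of the markers fixed to check the cell type, the noradrenergic ones were present in both libraries, DBH at 872 TPM in siCtrl and 743 in Total and HAND2 at 874 and 439.8. The 11 blood and endothelial markers summed to 4.32 TPM in siCtrl and 3.38 in Total, and the 10 Schwann and glial markers to 2.81 and 1.04.

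The cleared lysate lacked many mRNAs and gained few. By fold of TPM + 1, 2387 genes were more than 2-fold lower in Total than in siCtrl, which is 19.6% of the genes compared, and 156 (1.28%) were more than 2-fold higher. The median log2 fold of all 12173 genes was -0.41, and the median ratio was 0.750 over the 10896 genes that exceeded 1 TPM on both sides. Because TPM share a fixed total, the split depends on where the middle is set. With that median ratio set to 1, 1317 genes were lower and 445 higher, so the lower share of the calls changed from 93.9% to 74.7%. Folds below are given unscaled, so a list median is to be read against -0.41 and a share of lower members against 19.6%.

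The 3 siRNA libraries give a measure of how far single unstressed libraries lie apart, although the knockdowns may add changes of their own. Against siCtrl, 138 genes (1.12%) were more than 2-fold higher and 243 (1.98%) more than 2-fold lower in siG3BP1, and 150 (1.23%) and 353 (2.89%) in siG3BP2. The number of genes higher in Total was thus close to the number that separated 2 unstressed libraries, whereas the number lower was not. Requiring the same 2-fold difference against all 3 siRNA libraries left 48 genes higher (0.394% of those compared) and 951 lower (7.81%). These 2 sets are called higher and lower in all 3 comparisons below. The 3 comparisons share Total and are not independent of each other.

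**Figure D1:**
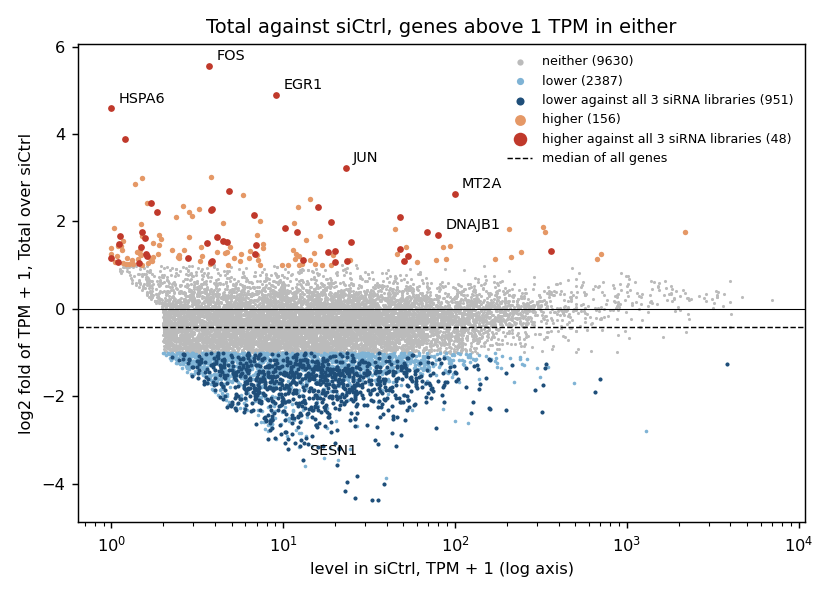
Log2 fold of TPM + 1 of Total over siCtrl (vertical axis) against the level in siCtrl (horizontal axis, TPM + 1 on a log axis), 1 point per gene, with the classes coloured and counted in the key and the median of -0.41 dashed. The 2387 lower genes lie at low and high levels alike, and FOS, EGR1 and HSPA6 lie highest.

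The mRNAs the lysate gained were led by immediate-early transcription factors. FOS (ENSG00000170345, GRCh38 chromosome 14, 75278826 to 75282230, plus strand), which pairs with JUN in the AP-1 factor, was at 2.71 TPM in siCtrl, 2.01 in siG3BP1, 1.91 in siG3BP2 and 174 in Total, a 47.3-fold difference of TPM + 1 between Total and siCtrl. EGR1 (ENSG00000120738, GRCh38 chromosome 5, 138465479 to 138469303, plus strand), a zinc-finger factor that serum and stress kinases induce, was at 8.08, 5.35 and 6.16 TPM in the siRNA libraries and 269 in Total. JUN (ENSG00000177606, GRCh38 chromosome 1, 58776845 to 58784048, minus strand) was at 22.1, 18.2, 19.2 and 216 TPM in the same order. In all of these Total lay far above the range of the 3 siRNA libraries, which differed little among themselves. FOSB, a second AP-1 partner, stood at 0.206, 0.168 and 0.0871 TPM in the unstressed cells and 16.9 in Total, and ATF3, a stress-induced repressor of the same family, at 5.77, 4.59 and 5.46 against 28.9. DUSP1, a phosphatase that switches off MAP kinases, was at 18, 14.3 and 17 against 74.4 TPM, and IER2, an early growth-response gene, at 46.8, 43.8 and 43.1 against 123.

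In Total against siCtrl the immediate-early list did not move as one. Of its 34 members compared, 9 were higher and 7 lower, beside 1.28% higher and 19.6% lower among all genes. The lower share was thus near that of all genes against siCtrl. All 16 kept that call in all 3 comparisons, where 0.394% of all genes were higher and 7.81% lower. The median log2 fold of the list was -0.13, above the -0.41 of all genes. Most of the lower members are feedback regulators of MAP kinase signalling. SPRY4, a brake on receptor tyrosine kinases, was at 25.5, 19.3 and 17.8 TPM in the siRNA libraries and 6.19 in Total. DUSP6, which dephosphorylates ERK, was at 26.7, 25.4 and 25.2 against 8.02 TPM, and MYC at 84.5, 82.8 and 76.1 against 23.9. SPRY2, DUSP4, DUSP2 and FOSL2 were lower by the same rule, with log2 folds between -1.84 and -1.43. By role, the 8 AP-1 and ATF members had a median log2 fold of 1.48, with 4 higher and 1 lower, while the 16 feedback and effector members had -0.53, with 3 higher and 5 lower.

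Heat shock genes formed the second gained group, with 6 of 25 members higher and 0 lower. Among all genes 1.28% were higher and 19.6% lower. The median log2 fold of the list was 0.26, against -0.41 for all genes. HSPA6 (ENSG00000173110, GRCh38 chromosome 1, 161524540 to 161526894, plus strand), a stress-inducible HSP70, was listed at 0 in all 3 siRNA libraries and at 23.2 TPM in Total. HSPA1A (ENSG00000204389, GRCh38 chromosome 6, 31815543 to 31817946, plus strand) was at 15, 12.3 and 14.5 TPM in the siRNA libraries and 79.3 in Total, and HSPA1B (ENSG00000204388, GRCh38 chromosome 6, 31827738 to 31830254, plus strand) at 3.84, 3.37 and 4.42 against 30.5. These 2 inducible HSP70 genes are nearly identical in sequence and can share reads, so how the reads divide between them is uncertain. DNAJB1 (ENSG00000132002, GRCh38 chromosome 19, 14514769 to 14560391, minus strand), the HSP40 partner of HSP70, was at 78.5, 65.9 and 71.9 TPM against 256, and BAG3, its cochaperone in selective autophagy, at 12, 11.3 and 10.7 against 27.5. HSP90AA1, the inducible HSP90, was past 2-fold against siCtrl and siG3BP1 but not siG3BP2, at 209.6, 235 and 291 TPM against 477. The remaining 5 kept the call in all 3 comparisons, where 0.394% of all genes were higher.

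Several constitutive chaperones were near their unstressed levels. HSP90AB1 was at 850.4 TPM in siCtrl and 942 in Total, HSPB1 at 703 and 721, and HSPD1, the mitochondrial HSP60, at 204 and 254. HSPA8, the constitutive HSP70, had the lowest log2 fold of the list, -0.66, and was at 1025 TPM in siCtrl, 1021 in siG3BP1, 591 in siG3BP2 and 648 in Total. Total lay inside the range of the siRNA libraries for HSPA8, because siG3BP2 was lowest.

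Since these genes are the known targets of HSF1, the bases before their start sites are shown, as RefSeq gives them on GRCh38.p14. HSF1 binds inverted nGAAn units, searched here as GAANNTTC or TTCNNGAA on both strands in the 250 bases before the start. Capitals mark the matches.
HSPA1A promoter, 118 to 87 bases before the start, chr6:31815425-31815456, plus strand: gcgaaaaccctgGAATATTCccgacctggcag
HSPA1B promoter, 117 to 86 bases before the start, chr6:31827621-31827652, plus strand: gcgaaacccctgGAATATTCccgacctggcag
HSPA6 promoter, 86 to 50 bases before the start, chr1:161524454-161524490, plus strand: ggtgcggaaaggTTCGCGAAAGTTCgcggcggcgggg
DNAJB1 promoter, 89 to 28 bases before the start, chr19:14518425-14518486, minus strand: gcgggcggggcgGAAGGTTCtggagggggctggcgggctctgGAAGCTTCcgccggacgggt
The HSPA1A and HSPA1B windows hold 1 match each at almost the same distance from the start, and the HSPA6 and DNAJB1 windows 2 each, which in HSPA6 overlap. Over the full 250 bases HSPA6 had 3. The motif was present in 11.6% of the 35116 promoters in the table. BAG3 and HSPH1 had no match in this window, whereas HSPA8, which was not higher in Total, had 4. Of the 3 promoters listed for DNAJB1, 1 held the motif.

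Metallothionein mRNAs, whose small cysteine-rich proteins bind zinc, cadmium and arsenic, made up the third group. MT2A (ENSG00000125148, GRCh38 chromosome 16, 56608584 to 56609497, plus strand) was at 98.3, 112 and 112 TPM in the siRNA libraries and 615 in Total, MT1X (ENSG00000187193, GRCh38 chromosome 16, 56682470 to 56684196, plus strand) at 67.3, 60.4 and 63.4 against 231, and MT1E at 3.45, 4.84 and 2.04 against 12.1. MT1G was close to the detection floor without AS, at 0.711, 0.517 and 0.305 TPM, and at 8.11 in Total. Of 7 members compared, these 4 were higher, each against all 3 siRNA libraries, and 0 were lower. For all genes the higher share was 1.28%, and 0.394% in all 3 comparisons. The median log2 fold of the list was 1.55. MT1F was at 6.85, 12.7 and 8.81 TPM against 11.3 and MT1A at 1.17, 0 and 0.522 against 1.17, neither of them past 2-fold. SLC30A1, a zinc exporter under the same factor, was at 4.19, 3.28 and 3.46 TPM against 7.3. The MT1 genes are close paralogs, and reads can be split among them.

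MTF1 binds metal response elements, searched as TGCACNC or TGCGCNC on both strands. The windows of MT2A and MT1X are shown because these were the most abundant members of the list, with the matches in capitals.
MT2A promoter, 165 to 1 bases before the start, chr16:56608419-56608583, plus strand: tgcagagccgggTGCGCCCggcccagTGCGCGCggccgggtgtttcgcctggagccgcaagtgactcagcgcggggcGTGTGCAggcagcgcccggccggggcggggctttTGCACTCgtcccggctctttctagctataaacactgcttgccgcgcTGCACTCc
MT1X promoter, 162 to 35 bases before the start, chr16:56682308-56682435, plus strand: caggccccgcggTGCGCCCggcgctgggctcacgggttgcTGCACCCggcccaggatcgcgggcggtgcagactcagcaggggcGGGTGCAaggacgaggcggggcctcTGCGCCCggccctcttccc
The MT2A window holds 5 matches and that of MT1X 4, and over the full 250 bases there were 7 and 4. This short motif was found in 24.8% of all promoters in the table. MT1E, MT1G, MT1F and MT1M had no entry in the table.

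Of 7 immediate-early genes whose promoters were searched for the CArG box, the site of serum response factor, EGR1 held it in the 250 bases before the start.
EGR1 promoter, 117 to 62 bases before the start, chr5:138465362-138465417, plus strand: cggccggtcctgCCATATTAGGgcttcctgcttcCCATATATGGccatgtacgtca
It holds 2 boxes, shown in capitals. The box was present in 1.16% of all promoters, and the listed windows of FOS, FOSB, JUN, ATF3, IER2 and DUSP1 held none.

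Of the integrated stress and ER stress response, 3 of 35 members were higher, 4 were lower and the median log2 fold was -0.21. This is above the -0.41 of all genes, of which 1.28% were higher and 19.6% lower. The 3 higher calls and 2 of the 4 lower ones held in all 3 comparisons. The 3 are outputs of ATF4: DDIT3 (CHOP), a factor of prolonged stress, was at 11, 11.3 and 12.4 TPM in the siRNA libraries and 39.6 in Total. PPP1R15A (GADD34), which restores translation by guiding the eIF2α phosphatase, was at 22.4, 23.7 and 23.6 against 49.3 TPM, and CHAC1, which degrades glutathione, at 19.1, 17.8 and 19.7 against 41.1. ATF4 itself was at 265, 228, 244 and 310.5 TPM. Among the ER chaperones and XBP1 targets, 0 of 17 were higher and 2 lower, EDEM1 at 4.08 TPM in siCtrl and 0.852 in Total and SEL1L at 3.46 and 1.11, both parts of ER-associated degradation.

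NRF2 targets, the antioxidant genes that arsenite is known to induce over longer times, showed 0 of 23 members higher and 2 lower, beside 19.6% lower among all genes. Their median log2 fold of -0.30 lay 0.11 above that of all genes and was 0.11 with the median ratio set to 1. HMOX1, haem oxygenase, was at 4.83, 5.29 and 3.07 TPM in the siRNA libraries and 5.87 in Total. SRXN1, which repairs peroxiredoxins, was at 31.2, 24.6 and 24.2 against 14.7 TPM, and MAFG, a small partner of NRF2, at 26, 22.5 and 21.6 against 6.09. Only MAFG of these kept its call in all 3 comparisons.

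**Figure D2:**
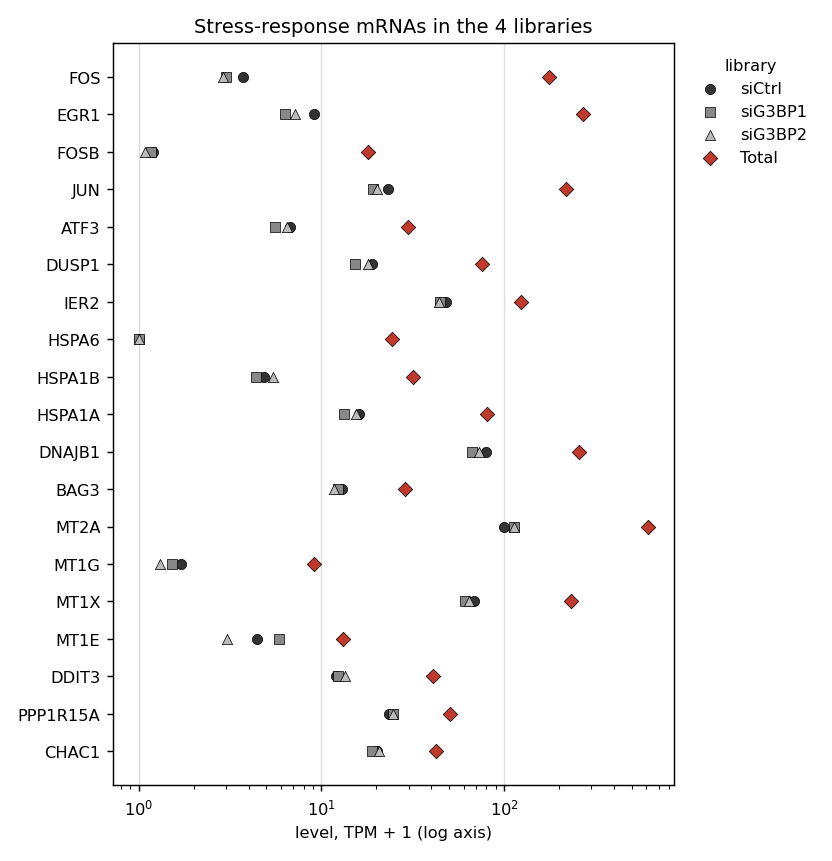
Level of 19 stress-response mRNAs (TPM + 1, log axis) in siCtrl, siG3BP1, siG3BP2 and Total, 1 symbol per library. In each row the 3 siRNA libraries lie together and Total lies to their right, with the widest gaps for FOS, EGR1 and HSPA6.

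Of the 48 genes higher in all 3 comparisons, 21 belonged to the immediate-early, heat shock, metallothionein or integrated stress lists, against 101 of the 12173 genes compared. These lists were chosen with earlier results of these data known, so the overlap is a description alone. Another 5 belonged to other lists, and 22 to none. Those of the 22 named here were chosen after their values were seen. ZFAND2A, an arsenite-inducible proteasome adaptor, was at 19, 17.8 and 21.7 TPM in the siRNA libraries and 48.9 in Total, and SERTAD1, a cell cycle regulator, at 3.72, 2.17 and 3.47 against 12.6. DLK1, a membrane protein of the adrenal lineage, was at 46.7, 61.6 and 80.9 TPM against 204, and VSNL1, a neuronal calcium sensor, at 2.84, 3.82 and 0.286 against 17.6. TRAPPC12, NOP2, SF3A2 and PTRH2, which serve vesicle tethering, ribosome assembly, splicing and mitochondrial survival signalling, were between 35.7 and 122 TPM in Total and between 9.19 and 52 in siCtrl. STMN1, the abundant microtubule-destabilizing stathmin, was at 362, 336 and 373 TPM against 904. It was the one member of 16 tubulins and stathmins past 2-fold. The median log2 fold of this list was -0.16, its quartiles were -0.52 and 0.02, and 5 members were above 0. TUBA1B, the most abundant, was at 3149 TPM in siCtrl and 3175 in Total, TUBB3, the neuronal β-tubulin, at 975 and 689, and STMN3 at 252 and 127.

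Several of the largest gains over siCtrl did not hold against 1 or both of the knockdown libraries. Of the 12 genes with the largest fold among those above 10 TPM, 7 were higher in all 3 comparisons and 5 were not. PEX14, a peroxisome import protein, was at 2.79 TPM in siCtrl but 25 in siG3BP1 and 23.8 in siG3BP2, against 29.7 in Total. TMEM256 was at 4.84, 34.3 and 35.7 against 34.8 TPM, and NSRP1, a splicing regulator, at 0.512, 6.49 and 8.57 against 11. UBE2L3, a ubiquitin-conjugating enzyme, was high in siG3BP2 as well as in Total, at 13.3, 12.8 and 83.1 against 81.2, and ZNF143 was spread over 1.61, 7.65 and 3.8 against 12.2. The same holds for NGDN, at 10.6, 46.8 and 46.7 against 44.1 TPM. The study reports NGDN as upregulated in G3BP-depleted cells by RT-qPCR. For these genes Total lay within 2-fold of 1 or both of the knockdown libraries. Apart from the RT-qPCR of NGDN, whether siCtrl was low or the knockdowns raised these genes was not tested.

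Among the lost mRNAs, the 12 with the smallest fold were above 10 TPM in siCtrl and below 2 TPM in Total. TUB (ENSG00000166402, GRCh38 chromosome 11, 8019244 to 8106243, plus strand), which carries receptors into cilia, was at 34.5, 22.8 and 18.1 TPM in the siRNA libraries and 0.73 in Total. SLC8A3 (ENSG00000100678, GRCh38 chromosome 14, 70044215 to 70189480, minus strand), a sodium-calcium exchanger, was at 25.3, 20.3 and 16.5 against 0.302. Total lay far below the lowest siRNA library in both. ABR, a regulator of small GTPases, was at 37.6, 25.8 and 28.1 TPM against 1.39, and PIP5K1C, a kinase that makes PIP2 at synapses, at 26, 25.6 and 20.8 against 0.902. SESN1, a p53-induced sensor of amino acids, was at 12, 11.8 and 11.3 against 0.183 TPM, and EXTL3, a heparan sulphate enzyme, at 19.5, 16.2 and 14.8 against 0.74.

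Others of the 12 were also low in an siRNA library. CUX2, a neuronal homeobox factor, was at 21.9 and 18.1 TPM in siCtrl and siG3BP1, 7.32 in siG3BP2 and 0.284 in Total. PLXNA4, a semaphorin receptor, was at 22.6, 17.3, 3.27 and 0.516, and GAB2, a docking protein of growth factor receptors, at 38.7, 26.3, 2.7 and 1.74. IQCJ-SCHIP1, a read-through of 2 neighbouring genes, was at 12.4, 10.5, 0.173 and 0.108 TPM, and C19orf81 at 19.7, 16.9, 1.09 and 0.888. GAB2, IQCJ-SCHIP1 and C19orf81 were not lower in all 3 comparisons, whereas the other 9 of the 12 were. Losses were rarely complete, and 3 genes above 1 TPM in siCtrl were listed at 0 in Total.

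**Figure D3:**
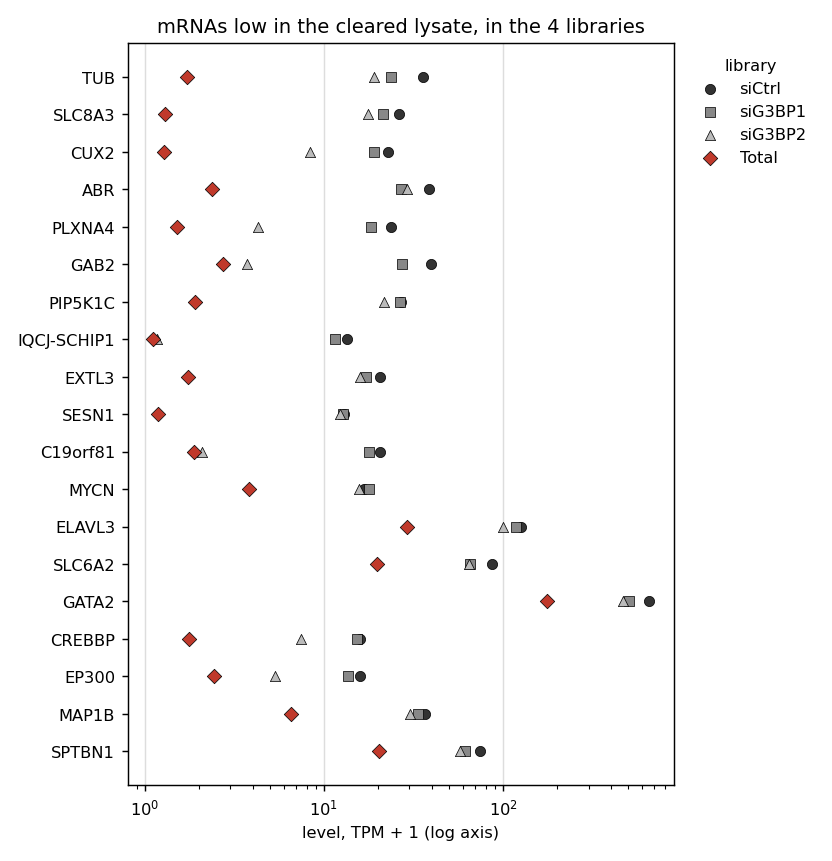
Level (TPM + 1, log axis) of 11 of the 12 genes with the smallest fold and of 8 members of the lists that follow, in siCtrl, siG3BP1, siG3BP2 and Total. Total lies to the left of the siRNA libraries in each row, and siG3BP2 lies next to it for GAB2, IQCJ-SCHIP1 and C19orf81.

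Length and base composition separated the lost from the retained mRNAs. The longest annotated protein-coding transcript had a median of 5050 bases in the 2387 lower genes (quartiles 3554 and 6897), 3093 in the 9630 genes in neither class and 2479 in the 156 higher ones. The 3′ UTR of that transcript had medians of 2202, 1225 and 722 bases and the coding sequence 1979, 1221 and 986. In the 951 genes lower in all 3 comparisons the median length was 5049 bases, and in the 48 higher ones 2378. Across 11915 genes with a length, Spearman's rho between log2 fold and length was -0.39 and Pearson’s r with log10 of the length -0.35. The points share the same 2 libraries and genes are not replicates, so no p-value is given. With siG3BP1 or siG3BP2 as the unstressed library rho was -0.38 and -0.34, and over coding length and 3′ UTR length it was -0.34 and -0.25 against siCtrl.

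By length, the median log2 fold was 0.02 for 628 genes of up to 1 kb, -0.10 for 1 to 2 kb, -0.32 for 2 to 3 kb, -0.48 for 3 to 4 kb, -0.64 for 4 to 6 kb, -0.77 for 6 to 8 kb and -0.81 for the 1000 genes over 8 kb. The share of genes more than 2-fold lower was 5.53% at 1 to 2 kb and 39.3% over 8 kb, beside 19.6% of all genes. Median levels show the same in TPM: in genes over 8 kb the median was 5.15 TPM in siCtrl and 2.24 in Total, and in genes of up to 1 kb 48 and 42. Longer coding and longer untranslated parts each went with lower folds. Among genes with 1 to 2 kb of coding sequence, the median log2 fold was -0.24 with a 3′ UTR of up to 0.5 kb and -0.59 with one of over 4 kb. Among genes with a 3′ UTR of 1 to 2 kb, it was -0.09 for coding sequences of up to 0.5 kb and -1.09 for those of over 4 kb.

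GC content separated genes within each length. In genes over 8 kb, the median log2 fold was -0.36 for the 257 with at most 40% GC and -1.36 for the 119 with over 55%, and 12.5% and 72.3% of them were more than 2-fold lower. In all 3 comparisons 4.28% and 37.8% of them were lower. Their levels differed as well. Over 8 kb, the median in siCtrl was 2.92 TPM at GC of up to 40%, 12.2 at 55% to 60% and 20.3 at over 60%. Folds of TPM + 1 are compressed at low levels, and how much of the contrast this makes up was not tested. In genes of 1 to 2 kb the corresponding medians were 0.18 at GC of up to 40% and -0.26 at over 60%. Single long and GC-poor mRNAs, chosen after their values were seen, were present in the cleared lysate at or above unstressed levels. HDAC2, a histone deacetylase with a 9737-base transcript of 37.8% GC, was at 31.6, 34.2 and 36.2 TPM in the siRNA libraries and 39.9 in Total. FXR1, an RNA-binding relative of FMRP (8343 bases, 36.3% GC), was at 16, 22.3 and 21.5 against 22 TPM, and DCP2, the decapping enzyme (10110 bases), at 4.44, 5.51 and 4.97 against 7.54. The transcript chosen for its length is the longest annotated one, which need not be the one expressed.

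**Figure D4:**
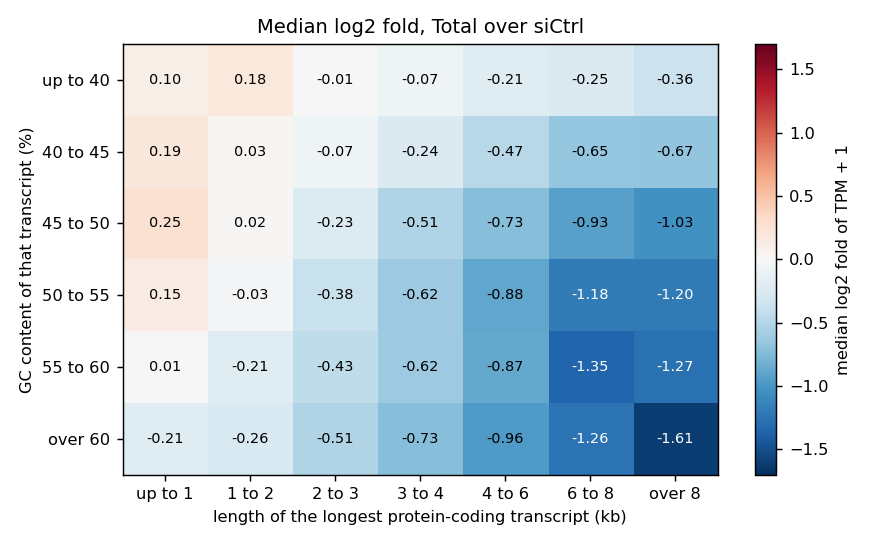
Median log2 fold of TPM + 1, Total over siCtrl, for genes binned by the length of the longest protein-coding transcript (horizontal, kb) and its GC content (vertical, %), with the value printed in each cell and blue for lower in Total. Values run from 0.25 in short mRNAs of 45% to 50% GC to -1.61 in mRNAs over 8 kb with over 60% GC, and within each length the lowest GC bin lies above the highest.

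The lists of long mRNAs followed. The 41 giant mRNAs compared encode cytoskeletal linkers, motors and very large ubiquitin ligases. Of them 25 were lower, 0 were higher and the median log2 fold was -1.05. Of all genes 19.6% were lower, and of those over 8 kb 39.3%, with a median of -0.81. MAP1B, a microtubule-associated protein of growing axons, was at 35.5, 32.3 and 29.1 TPM in the siRNA libraries and 5.55 in Total. DYNC1H1, the heavy chain of cytoplasmic dynein, was at 66.6, 53.4 and 50 against 19.8 TPM, and SPTBN1, β-spectrin, at 73.8, 60.2 and 56.8 against 19.3. PLEC was at 29.8 in siCtrl but 9.27 and 9.72 in the knockdowns, against 3.89. MACF1, the spectraplakin that joins actin to microtubules, was at 9.34, 11.4 and 20.1 against 0.463. FLNA, filamin A, was less reduced, at 186, 148 and 148 against 106, and NBEA and ANK2 were above siCtrl at 4.75 and 3.1 TPM against 3.44 and 2.61. In all 3 comparisons 15 of the 41 were lower, beside 7.81% of all genes and 15.6% of genes over 8 kb.

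Chromatin modifiers and remodelers had 30 of 59 members lower and 0 higher, with a median log2 fold of -1.02. Their median transcript length was 8541 bases. The lower share was 19.6% in all genes and 39.3% in genes over 8 kb. CREBBP, a histone acetyltransferase, was at 14.9, 14.3 and 6.41 TPM in the siRNA libraries and 0.777 in Total, its paralog EP300 at 14.8, 12.7 and 4.33 against 1.44, and KMT2D, a methyltransferase of H3K4, at 14.3, 7.64 and 9.91 against 1.7. SMARCA4 and CHD4, the most abundant members in siCtrl, were at 186 and 121 TPM there and 87.8 and 59 in Total. In contrast, EZH2 was at 46.8 and 45.7, SMARCE1 at 37.3 and 44.4 and EED at 9.36 and 12.2, none of them past 2-fold. CHD6 and KAT6A were past 2-fold against siCtrl but not in all 3 comparisons, with 1.63 and 5.75 TPM in siG3BP1 and 1.39 and 1.42 in siG3BP2 against 0.566 and 0.59 in Total. In all 3 comparisons 16 members remained lower, beside 7.81% of all genes and 15.6% of genes over 8 kb.

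Neuroblastoma identity genes, the transcription factors of the adrenergic core circuit with the noradrenergic and neuronal products, had the lowest median of all lists, -1.24, although their median transcript length was 2924 bases. Genes of 2 to 3 kb had a median of -0.32. Of 28 members, 18 were lower and 0 higher, 13 of them in all 3 comparisons. Of all genes 19.6% were lower, and 7.81% in all 3 comparisons. For genes of 2 to 3 kb these shares were 10.6% and 4.0%. The summed level of the list was 6178 TPM in siCtrl, 5920 in siG3BP1, 6071 in siG3BP2 and 3764 in Total. MYCN, the oncogenic driver of many neuroblastomas, was at 15.8, 16.8 and 14.7 TPM against 2.82. GATA2 was at 653, 505 and 464 against 175 TPM. Among the products, SLC6A2, the noradrenaline transporter, was at 85.7, 64.6 and 64 TPM against 18.7, ELAVL3, a neuronal RNA-binding protein, at 125, 117 and 99.1 against 28, and CHRNB4, a nicotinic receptor subunit, at 28.4, 14.8 and 24.9 against 5.38.

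Part of this list was near its unstressed level. UCHL1 was at 988 TPM in siCtrl and 944 in Total, DBH, which makes noradrenaline, at 872 and 743, and SOX11 at 33 and 27.9, the last despite a transcript of 9002 bases. The mesenchymal neuroblastoma markers, the other cell state of these lines, had a median log2 fold of -0.14 over 11 members with 1 higher and 2 lower, none of which held in all 3 comparisons, and summed to 1680, 1792 and 2047 TPM in the siRNA libraries and 2340 in Total. VIM made most of this sum, at 1514, 1612, 1871 and 2178 TPM, while PDGFRB was at 44.3, 36.9, 31.4 and 19.3. Whether the share of cells in either state differed between the experiments was not tested.

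Other regulated groups were also low in Total. Of 18 p53 targets, 7 were lower and 0 higher, 6 of them in all 3 comparisons, with a median log2 fold of -0.85. CDKN1A, the p21 inhibitor of the cell cycle, was at 115, 139 and 150.0 TPM in the siRNA libraries and 32.9 in Total. TNFRSF10B, a death receptor, was at 37.7, 33.8 and 32.1 against 11 TPM and BBC3 (PUMA) at 23.2, 29.4 and 26.2 against 7.32, while PMAIP1 and BAX were at 11.7 and 137 TPM in siCtrl and 12.4 and 109 in Total. P-body and decay factors had 13 of 34 members lower and 0 higher with a median of -0.80. In all 3 comparisons 3 were lower, a share near the 7.81% of all genes. Against siG3BP1 and siG3BP2 5 and 7 members were lower, beside 14.4% and 11.3% of all genes. TNRC6A and TNRC6C, scaffolds of the miRNA machinery, were at 6.24 and 6.88 TPM in siCtrl and 1.26 and 1.28 in Total. Of 35 secreted and matrix proteins 11 were lower and 1 higher, with a median of -0.77, and 6 and 0 in all 3 comparisons. The medians of these 3 lists compare with -0.41 for all genes. Their lower counts compare with 19.6% of all genes, and with 7.81% in all 3 comparisons. Of the secreted proteins, VGF and SCG2, precursors of granule peptides, were at 699 and 66.6 TPM in siCtrl and 229.9 and 14.4 in Total. GAL was at 181 and 197 TPM.

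mRNAs of the housekeeping machines, most of them short, lay above the median of all genes. The 86 cytosolic ribosomal protein mRNAs had a median log2 fold of 0.37, which is 0.78 above that of all genes, and 78 of them were above 0. Their sum was 131265 TPM in siCtrl, 134297 in siG3BP1, 138664 in siG3BP2 and 168512 in Total, or 20.3%, 21.4%, 22% and 27% of the protein-coding TPM. Against siCtrl 6 were more than 2-fold higher, beside 1.28% of all genes, or 21 with the median ratio set to 1. Without rescaling 0 were higher in all 3 comparisons. RPS19 and RPS14 were among the 6, and their levels in siG3BP2 (1121 and 1003 TPM) were near those in Total (1189 and 1131) rather than in siCtrl (322 and 331). RPL12 went the other way in all 3 comparisons, at 3844, 4192 and 3733 against 1616 TPM. RPS24 was low in siG3BP1 as well as in Total, at 1283, 88, 1495 and 183. Many of these genes have processed pseudogenes that can take reads.

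Nuclear subunits of oxidative phosphorylation had a median of 0.13 over 78 members, mitochondrial ribosomal proteins 0.15 over 78, the ER translocon and its targeting factors 0.16 over 33, proteasome subunits 0.08 over 34, translation factors 0.07 over 47 and glycolytic enzymes -0.02 over 18. In each of them at most 3 members were higher and at most 2 lower, beside 1.28% and 19.6% of all genes. GAPDH was at 6994 TPM in siCtrl and 8061 in Total, COX6B1 at 869 and 1059, and TXN, thioredoxin, at 174 and 233. Within the translation factors, the scaffold EIF4G1, which has a long transcript, was at 175, 124 and 119 TPM against 68.6, and EIF3E at 76.7, 90.8 and 85 against 169. Poly-A selection, described for the siRNA libraries, retains few replication-dependent histone mRNAs. Of the 40 compared 6 were higher and 1 lower, beside 1.28% and 19.6% of all genes, with a median of 0.33. H2AC7 and H3C4 were higher in all 3 comparisons, at 0.573 and 0.479 TPM in siCtrl and 3.82 and 2.95 in Total. The histone list held 0.0378% of the protein-coding TPM in siCtrl and 0.0506% in Total. Whether RNA selection plays a part in these differences was not tested.

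**Figure D5:**
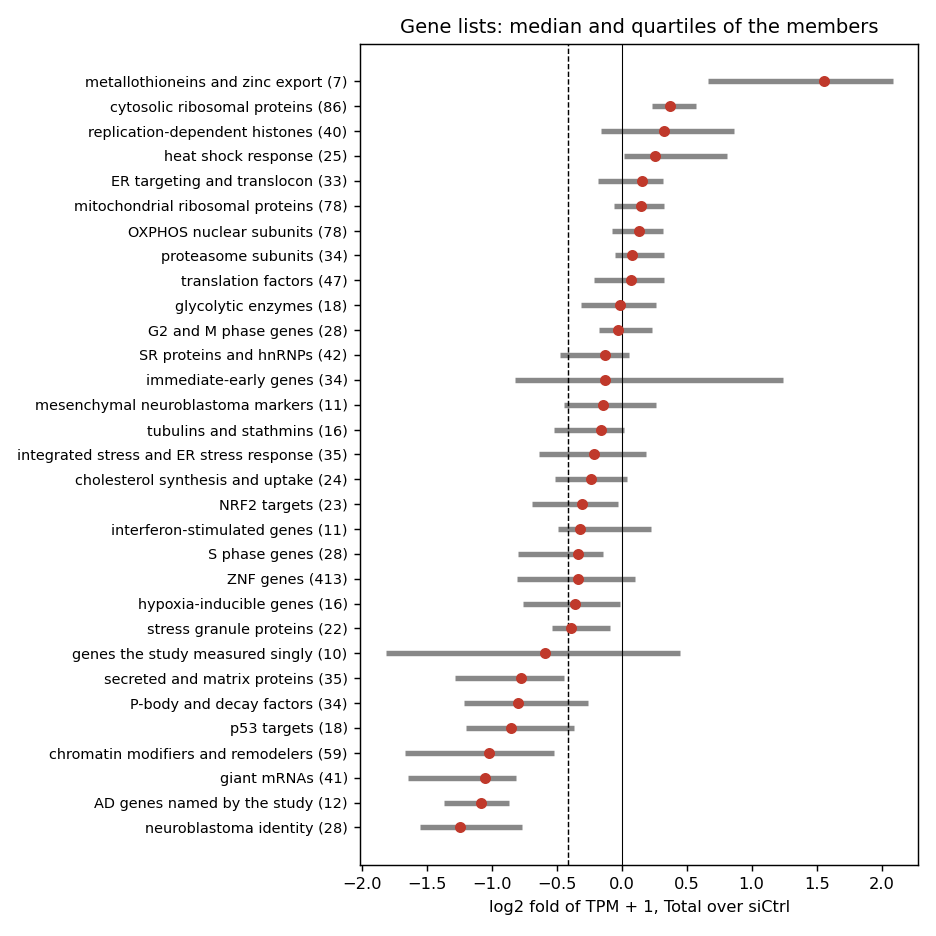
Median (point) and quartiles (bar) of the log2 fold of TPM + 1, Total over siCtrl, for the members of each list with at least 7 genes compared, the number of which is in parentheses, with the median of all genes dashed. Metallothioneins, ribosomal proteins, histones and heat shock genes have the highest medians and neuroblastoma identity genes, the Alzheimer's disease genes and giant mRNAs lowest.

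The remaining lists lay closer to the median of all genes, -0.41, or above it, and fewer of their members were lower than the 19.6% of all genes. Zinc finger genes named ZNF had 8 of 413 members higher and 64 lower, a median of -0.33 and a summed level of 4817 TPM in siCtrl and 3787 in Total, and 2 and 21 of these calls held in all 3 comparisons. S phase genes had 0 of 28 higher and 3 lower with a median of -0.33, and G2 and M phase genes 2 of 28 higher and 1 lower with -0.03. In the latter list MKI67, whose transcript is 12716 bases long, was at 34.1, 27.5 and 21.1 TPM against 11.4. SR proteins and hnRNPs had 1 of 42 higher and 2 lower with -0.13, cholesterol genes 0 of 24 higher and 3 lower with -0.24, hypoxia genes 0 of 16 and 2 with -0.36, and interferon-stimulated genes 0 of 11 and 2 with -0.32. In all 3 comparisons 2 S phase, 1 cholesterol and 1 interferon-stimulated gene were lower, and no call of the G2 and M phase, SR and hnRNP or hypoxia lists held. SG proteins had 0 of 22 past 2-fold in either direction, with a median of -0.39.

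A list of 12 Alzheimer's disease (AD) genes was taken from those named in the study's text, with PSEN2 added. Of them 7 were lower against siCtrl and 0 higher, with a median of -1.08. Against siG3BP1 and siG3BP2 5 and 1 were lower, and 0 were lower in all 3 comparisons. The lower share of all genes was 19.6% against siCtrl and 7.81% in all 3 comparisons. Because most of this list came from the study, it is not an independent choice. APP, the precursor of amyloid β, was at 262, 262 and 206 TPM in the siRNA libraries and 119 in Total, and BACE1, the β-secretase, at 43.6, 33.4 and 29.9 against 18.3. MAPT, which encodes tau, was at 13.6 TPM in siCtrl but already at 4.68 in siG3BP1 and 1.86 in siG3BP2, against 0.656. Of the genes assayed one by one, TCF4 was at 21, 17.8 and 20.3 against 6.81 and PRKCA at 54.2, 44.2 and 35.8 against 17.1, while MIF, EBPL and TPT1 were at 870.3, 77.5 and 580.4 TPM in siCtrl and 1085, 109 and 741 in Total. HMOX2 was at 16.2 TPM in siCtrl but 0.754 and 0.844 in the knockdowns, against 0.613. HTT was at 17, 4.98 and 3.89 against 1.72. The study reports HMOX2 and HTT as downregulated in G3BP-depleted cells by RT-qPCR.

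A second pair of libraries from the series, rRNA-depleted RNA of whole cells with 500 μM AS for 1 h or untreated, had neither transfection nor clearing and shares no sample with Total or siCtrl. Its values were deposited per transcript and were summed per gene as a signal. Among 11410 of the genes above, 326 were more than 2-fold higher with AS in signal + 1 (2.86%) and 55 lower (0.482%), with a median log2 fold of 0.26. Of the 48 genes higher in all 3 comparisons, 41 had a signal above 1, and 18 of these (43.9%) were also more than 2-fold higher here and 0 lower. Signals of FOS were 0.768 untreated and 236 with AS, those of EGR1 0.408 and 134, those of JUN 3.47 and 100.4, those of DNAJB1 197 and 890.0, those of MT1X 6.13 and 80.3 and those of DDIT3 7.58 and 33.5. HSPA1A and HSPA1B were near 0 in both of these libraries, at 0.0834 and 0.0352 with AS. In the immediate-early list, 20 of 34 members were more than 2-fold higher with AS here and 0 lower, with a median log2 fold of 1.40. In Total against siCtrl 9 were higher and 7 lower. DLK1 and STMN1 were at 52.6 and 824 untreated and 57.4 and 1056 with AS, differences below 2-fold.

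Few of the losses of the lysate were seen in that pair. Of the 2236 lower genes with a signal, 15 (0.671%) were more than 2-fold lower with AS and 31 (1.39%) higher, with a median log2 fold of 0.16. Of 905 that were lower in all 3 comparisons, 8 were lower and 13 higher, with a median of 0.11. Signals of SESN1 were 9.84 untreated and 12.2 with AS, those of MAP1B 351 and 394, those of CREBBP 91.6 and 85.2 and those of GATA2 701 and 625. MAPT, in contrast, was at 9.09 and 0.7. By length, the median log2 fold with AS lay between 0.19 and 0.28 in all 7 bins, and rho with length was -0.01 over 11214 genes. GC content did go with the AS fold there, with a rho of -0.31. In Total it was -0.23 against siCtrl, -0.17 against siG3BP1 and -0.13 against siG3BP2. Across the same genes, rho between the 2 comparisons was 0.20. The library types differ, since rRNA depletion also captures nuclear and unspliced RNA, which poly-A selection or the clearing of a lysate reduces. Whether this accounts for the difference was not tested.

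In the SG core library, which was purified from the same lysate as Total, the lost mRNAs were abundant. The median level of the 2387 lower genes was 11.8 TPM in siCtrl, 3.50 in Total and 47.8 in SG, and that of the 9630 genes in neither class was 14.5, 11.6 and 29.1. For the 156 higher genes the medians were 3.71, 14.2 and 18.1. MAP1B was at 989 TPM in SG, SPTBN1 at 933, TUB at 181 and CREBBP at 301. Among the 12 genes with the smallest fold, EXTL3 was lower in SG (10.2 TPM) than in siCtrl, and so were IQCJ-SCHIP1 (3.18) and C19orf81 (0.152). The induced FOS and EGR1 were also high in SG, at 802 and 3277 TPM, whereas MT2A was at 167 and the ribosomal protein mRNAs summed to 12015 TPM, or 1.63% of the protein-coding TPM. SG cores and Total differ in their whole composition and the SG values are given as levels alone.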

How the data were processed

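The siRNA, Total and SG libraries were sequenced on DNBSEQ and aligned with HISAT2 2.1.0 (submitters' processing notes) to GRCh38. They were quantified with StringTie and GENCODE release 41. The authors deposited TPM for 19942 protein-coding rows in 5 columns, 1 library per column. mRNAs of mitochondrial DNA were not analysed here. For rRNA-depleted RNA the authors deposited a signal per transcript, made with HISAT2 and StringTie and called TPM. Its columns sum to more than TPM can, and it was summed per gene. TPM and these signals keep no read depth, so no counting error could be given.

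Groups came from the labels. Folds were taken on TPM + 1 (signal + 1) for rows above 1 in at least 1 library, and a gene was called higher above 2-fold and lower below 0.5. With 1 library per side no test was run. In the table, 36 rows listed 18 gene IDs more than once and were kept as rows. Transcript lengths, GC content and coordinates came from GENCODE release 44, which gave a length for 11915 of the 12173 rows. It held 91.1% of the transcripts listed for the rRNA-depleted libraries, and the others were left out of the sums per gene. Genes that overlap or have close paralogs can share reads. Promoters came from RefSeq (GRCh38.p14).

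The genes named were the 12 largest and 12 smallest folds above 10 TPM. From each of 33 lists came up to 5 highest and 5 lowest members and the most abundant members. Added to these were the genes the study measured singly, the AD list, G3BP1 and G3BP2. Other genes, such as list members near their unstressed level, were picked once their values had been seen. The set of genes and the lists were chosen with earlier results of these data known. The fold and call code was tested on simulated data. Computation used pandas 2.3.3 and scipy 1.17.1 under Python 3.11.15. Alternatives covered the pseudocount, threshold, filter, scaling, unstressed library and transcript choice, and 2 were added after the data were seen: a call against each siRNA library, and leaving out gene IDs listed more than once. The G3BP1 and G3BP2 eCLIP values were not used here. Values of some genes that the rule names are not reported here.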

Additional observations from a re-analysis of the deposited data

How the results depend on the processing

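Each side had 1 library, so no replicate could be left out. No paired analysis was possible because each side was 1 library and no test was run. The 156 higher and 2387 lower genes became 272 and 3209 with a pseudocount of 0.1, 288 and 3311 by the plain ratio of TPM, 27 and 311 with thresholds of 4 and 0.25, 93 and 1336 above 10 TPM, and 445 and 1317 with the median ratio set to 1. With siG3BP2 as the unstressed library 150 were higher and 1356 lower, with siG3BP1 166 and 1741, with the median of the 3 siRNA libraries 111 and 1683, and against each of the 3 (added after the data were seen) 48 and 951. Counts stayed within 1.5 times without a filter (156 and 2387), with the same protein-coding sum (173 and 2225), with ribosomal protein mRNAs left out (233 and 1864) and with gene IDs listed more than once left out (156 and 2381). In each of these settings more genes were lower than higher. rRNA-depleted calls were 158 higher and 29 lower from the most abundant transcript of a gene, against 326 and 55 from the sum.

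Of the single genes reported that were past 2-fold, 4 changed sign with another siRNA library as the unstressed one. NGDN had a log2 fold of -0.084 against siG3BP1 and -0.079 against siG3BP2, PTK2B 0.0031 against siG3BP1, and TMEM256 and UBE2L3 -0.0333 and -0.0327 against siG3BP2. G3BP1 (0.98) and G3BP2 (1.23) changed sign against their own knockdown and MIF (-0.013) against siG3BP1. With the median ratio set to 1, PSEN2 turned to 0.16 and the medians of 13 lists below 0 turned positive, to between 0.01 and 0.40. The immediate-early median was also above 0 against siG3BP2 (0.08), and that of glycolytic enzymes against siG3BP1 (0.07) and siG3BP2 (0.02). The 13 include the immediate-early (0.25), integrated stress (0.19), NRF2 (0.11), S phase (0.07) and ZNF (0.03) lists. In that setting 16 giant mRNAs, 22 chromatin genes, 10 neuroblastoma identity genes, 4 p53 targets and 3 AD genes were lower, and 14 histones and 14 immediate-early genes higher. For length, rho stayed between -0.39 and -0.34 over the choice of transcript and of unstressed library. Values at or below 1 TPM are the least precise, and TPM do not show how many reads lie behind them.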
